A study of Homo sapiens with 6 samples.

Results

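The 57 genes described here encode proteins of the centromere and kinetochore, the spindle checkpoint, the mitotic kinases and their partners, chromosome cohesion and the spindle, cytokinesis and the exit from mitosis. They were taken by symbol from a table of 22807 genes, in which all 57 had values. The table holds bulk RNA-seq of MDA-MB-453, an established HER2+ breast cancer cell line with luminal and apocrine features. Cells in the *DUSP6* siRNA group (3 libraries) were transfected with siRNA against *DUSP6*, a phosphatase that removes the activating phosphates from ERK, and cells in the scrambled siRNA group (3 libraries) with non-targeting siRNA. Both groups were transfected with a lipid reagent, and the labels give no drug treatment or time point for either. In the study 3 siRNAs against *DUSP6* and 3 scrambled controls were used, and the sources used here do not tie them to single libraries. Nothing in the labels says that the libraries of a group came from separate cultures. The p-values therefore measure the spread between these libraries, which may be technical or lie between siRNA sequences. The question was how mRNA levels differed once *DUSP6* was silenced, and how the constitutive centromere and outer kinetochore genes compared with the mitotic kinases and exit genes.

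At mitosis each chromosome is held by its kinetochore, a protein stack built on centromeric chromatin that carries the histone variant CENP-A. The constitutive centromere network binds that chromatin, and the outer kinetochore, made of KNL1 and the MIS12 and NDC80 complexes, grips the microtubules. Kinetochores without microtubules activate the spindle checkpoint, which holds back CDC20 and with it the anaphase-promoting complex. Once the checkpoint is satisfied, that complex marks securin and cyclin B for destruction, separase opens the cohesin rings, and the cell divides. Many of these genes are transcribed mainly in late S, G2 and M phase, from promoters with CHR and CCAAT elements.

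A value is the number of reads of a gene relative to the library size, scaled by the authors so that libraries can be compared, and 1 read was worth 0.0121 to 0.0202 in such values. The recovered depth was 45546981 to 85729785 reads per library, so at all but low values the spread between libraries, more than counting error, set the precision. At low values, such as those of *CENPP*, counting error is not negligible. Fold changes are on the log2(value + 1) scale, *DUSP6* siRNA minus scrambled siRNA, and the limma test was run over the 12862 genes whose mean over the 6 libraries was 1 or more. A gene is called lower or higher at a Benjamini-Hochberg adjusted p under 0.05. Values in the libraries are listed in the order of replicates 1 to 3. *DUSP6* (Entrez 1848, chr12:89347235-89352501 on GRCh38) had values of 209, 110.1 and 114 with scrambled siRNA and 39.4, 24.5 and 35.2 with *DUSP6* siRNA (log2 fold change -2.05, SE 0.25, limma adjusted p = 0.000309), and the groups did not overlap. The luminal markers *ERBB2*, *GATA3*, *FOXA1*, *KRT8*, *KRT18* and *XBP1* had values between 283 (*FOXA1*) and 1709 (*XBP1*) in every library, which goes with the label. Their sum was 4467 to 5381 with scrambled siRNA and 2936 to 3269 with *DUSP6* siRNA, and all 6 were called lower. Exons of *KRT8* cover 17.1% of those of *KRT18*, *KRT18* covers 7.63% of *KRT8* and *MIEN1* 5.53% of *ERBB2*, so these values are uncertain. Among markers of other cells, *PTPRC*, *PECAM1*, *COL1A2* and *KRT5* did not exceed 0.92 in any library. The sum of that list was 89.96 to 121 with scrambled siRNA and 165 to 195 with *DUSP6* siRNA, which *COL1A1* (log2 fold change 0.90) made up for the most part, while *TP63* fell by 1.95 on the log2 scale. The 6 interferon-stimulated genes were all called higher, by 1.22 (*MX1*) to 7.19 (*IFIT1*) on the log2 scale. Their part in the results below was not tested. Scrambled siRNA replicate 1 held the highest value of the 6 libraries for 41 of the 57 mitotic genes, and without it 38 in place of 44 were called lower. Over all 12862 genes tested, 2840 in place of 3179 were called lower without that library.

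With *DUSP6* siRNA, 44 of the 57 mitotic genes were called lower and 1, *FZR1*, was called higher. Over all genes tested, 24.7% were called lower and 19.7% higher. The other 12, which were *CENPH*, *CENPL*, *CENPW*, *NDC80*, *MIS12*, *PMF1*, *NSL1*, *BUB3*, *AURKB*, *SGO1*, *CDC20* and *ESPL1*, did not pass the test. All 57 passed the filter on low values. For 47 genes every *DUSP6* siRNA library was below every scrambled siRNA library, against 31.1% of all genes tested. The median log2 fold change was -0.547, against -0.014 over all genes tested, and the middle part of the distribution, between the quartiles, ran from -0.717 to -0.364, against -0.32 to 0.268 over all genes. Falls were moderate. A log2 fold change below -0.5 was found for 29 of the 57 genes and for 15.8% of all genes, and below -1 for 1 gene, *SKA3*, and for 4.23% of all genes. In bulk RNA, fewer cells in mitosis and less of these mRNAs per cell cannot be told apart.

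**Figure D1:**
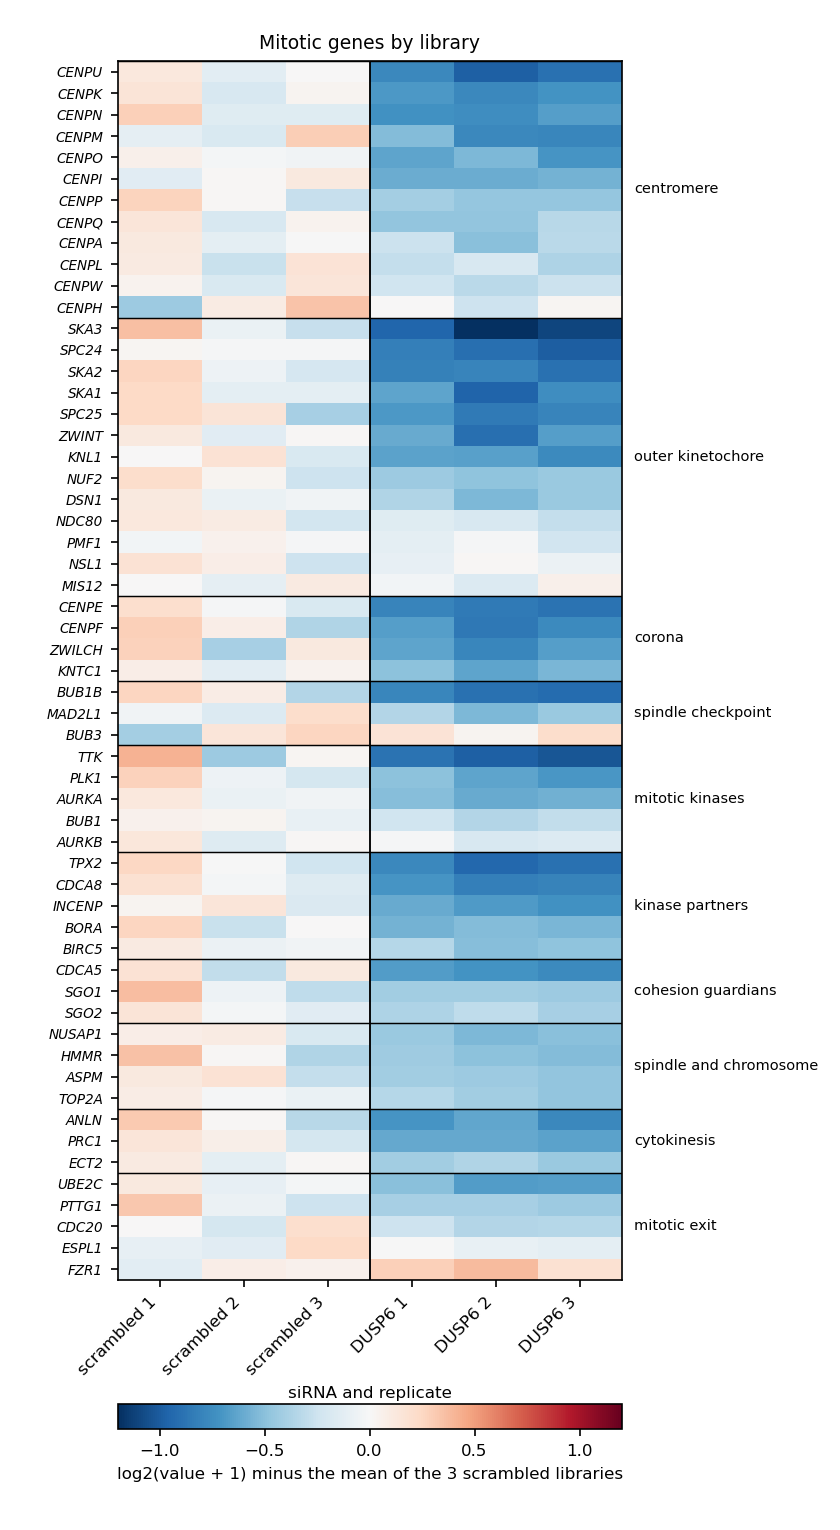
Log2(value + 1) of each mitotic gene (vertical axis, grouped by role) in each of the 6 libraries (horizontal axis), as the difference from the mean of the 3 scrambled siRNA libraries, with blue for lower and red for higher. The 3 *DUSP6* siRNA columns are blue for most genes, *FZR1* is red in all 3, *BUB3* is pale red in 2, and *MIS12*, *NSL1*, *PMF1* and *ESPL1* are among those near white.

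The shift was alike in the 3 *DUSP6* siRNA libraries. The median difference of the 57 genes from the scrambled siRNA mean was -0.491, -0.54 and -0.549 in *DUSP6* siRNA replicates 1 to 3, and 0.126, -0.062 and -0.042 in scrambled siRNA replicates 1 to 3. The same median over all genes tested lay between -0.022 and 0.015 in every library. *DUSP6* siRNA replicate 1 held the highest value of its group for 40 of the 57 genes. The libraries with scrambled siRNA were more spread, with a median coefficient of variation of 13.7% for the mitotic genes against 5.07% with *DUSP6* siRNA. Over all genes tested these were 12.7% and 6.04%. The coefficient of variation was larger with scrambled siRNA for 51 of the 57 genes (89.5%) and for 78.8% of all genes.

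Promoter sequences were compared with the fold changes, since these genes moved together. RefSeq windows from 250 bases before to 50 bases after the gene start (GRCh38.p14) matched 46 of the 57 genes. *KNL1*, *AURKA*, *KNTC1*, *CENPL*, *BIRC5*, *TTK*, *CENPH*, *UBE2C*, *CENPM*, *TPX2* and *BUB3* had no match. The CHR, which the LIN54 subunit of the DREAM and MYB-MuvB complexes binds, was searched as TTTGAA or TTCGAA on both strands. It was in 30 of the 46 windows (65.2%), in 10.6% of the 10127 tested genes with a window and in 16.3% of all 27305 windows, 1 per gene. The CCAAT box, bound by NF-Y, was searched as CCAAT on both strands, and was in 32 windows (69.6%), against 37.3% of tested genes and 35.7% of all windows. Both stood in 21 windows (45.7%), against 4.58% of tested genes and 6.49% of all windows. A CHR that began within 50 bases of the start was found for 25 of the 46 genes (54.3%) and for 3.38% of tested genes. An E2F element, searched as TTTGGCGC or TTTCGCGC on both strands, was in 2 windows (4.35%), against 2.21% of tested genes and 1.17% of all windows. CHR and CCAAT letters can share a base, as they do in *CDCA8*.

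The 130 bases before the start are shown 5′ to 3′ on the gene's strand for the 4 called genes with the largest falls that hold both motifs, *CDCA8*, *SPC25*, *CENPF* and *ZWINT*, and for *NSL1* and *CENPP*, the 2 genes nearest to a fold change of 0 that hold neither. Capitals mark CHR and CCAAT elements in either orientation. *CDCA8* (chr1:37692386-37692515, plus strand) has its CHR 23 bases before the start, with an overlapping CCAAT box and 2 more further up. *ZWINT* (chr10:56361260-56361389, minus strand) has its CHR 31 bases before the start and CCAAT boxes at 66 and 116 bases.
CDCA8: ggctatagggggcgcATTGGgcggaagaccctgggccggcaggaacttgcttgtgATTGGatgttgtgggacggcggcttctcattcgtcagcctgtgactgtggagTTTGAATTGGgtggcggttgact
ZWINT: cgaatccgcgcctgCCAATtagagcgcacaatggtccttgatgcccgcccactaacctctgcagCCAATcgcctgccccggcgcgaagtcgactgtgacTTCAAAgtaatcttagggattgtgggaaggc

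In *SPC25* (chr2:168890431-168890560, minus strand) a CHR begins 3 bases before the start and runs over it, so only its CCAAT boxes are marked. In *CENPF* (chr1:214603065-214603194, plus strand) the CHR lies 40 bases after the start, outside the bases shown. Both have CCAAT boxes less than 100 bases before the start.
SPC25: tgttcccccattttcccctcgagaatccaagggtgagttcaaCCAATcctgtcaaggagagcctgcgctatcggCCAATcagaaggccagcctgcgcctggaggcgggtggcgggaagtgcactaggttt
CENPF: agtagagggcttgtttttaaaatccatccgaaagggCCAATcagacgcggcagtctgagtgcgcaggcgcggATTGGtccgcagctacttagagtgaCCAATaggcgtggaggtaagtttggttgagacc

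*NSL1* (chr1:212791778-212791907, minus strand) and *CENPP* (chr9:92325823-92325952, plus strand) hold neither motif in the whole 300-base window. Their log2 fold changes were -0.05, not called, and -0.44, called lower.
NSL1: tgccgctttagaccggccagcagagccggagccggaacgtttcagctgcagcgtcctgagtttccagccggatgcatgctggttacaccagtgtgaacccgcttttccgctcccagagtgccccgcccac
CENPP: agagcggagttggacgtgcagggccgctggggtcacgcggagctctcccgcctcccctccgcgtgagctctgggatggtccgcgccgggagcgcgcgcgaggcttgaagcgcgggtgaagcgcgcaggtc

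Genes called lower were found in all 4 motif classes. Genes with both motifs had a median of -0.478 (log2 fold change), with 17 of 21 called lower. Genes with a CHR alone had a median of -0.70 (7 of 9 lower), those with CCAAT alone -0.428 (8 of 11 lower) and those with neither -0.447 (4 of 5 lower). Over the 10127 tested genes with a window, 35.6% of those with both motifs were called lower. The shares were 24.9% with a CHR alone, 25% with CCAAT alone and 23.6% with neither. These shares include the genes above, which make up 17 of the 165 called lower with both motifs. The motif classes were not tested against each other, and a match of letters is no evidence of binding.

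**Figure D2:**
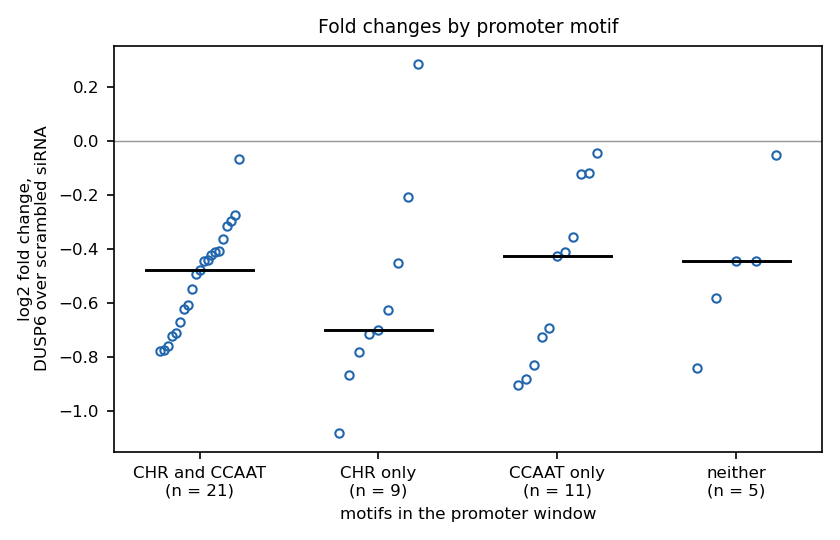
Log2 fold change (vertical axis, *DUSP6* over scrambled siRNA) of the 46 mitotic genes with a promoter window, by the motifs in the window (horizontal axis). Each circle is 1 gene and the bar is the median of the class. All 4 classes span strong falls and smaller changes. With a CHR alone, the values nearest to 0 are -0.21 (*NDC80*) and 0.28 (*FZR1*).

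Of the 12 genes of the constitutive centromere, 9 were called lower, and the median over the 12 was -0.514 (log2). The largest falls were in *CENPU*, *CENPK* and *CENPN*, of which CENPN binds the CENP-A nucleosome itself and the other two are further subunits of the network. *CENPU* (Entrez 79682, chr4:184694085-184734096) had values of 119, 99.9 and 109.5 with scrambled siRNA and 63.7, 54.8 and 58.5 with *DUSP6* siRNA. Its log2 fold change was -0.88 (SE 0.10, limma adjusted p = 0.000216), and the highest *DUSP6* siRNA library was well under the lowest scrambled one. For *CENPK* the values were 17.5, 13.6 and 16.1 with scrambled siRNA and 9.34, 8.73 and 9.12 with *DUSP6* siRNA (-0.73, adjusted p = 0.00132). *CENPN* had values of 69.8, 51.8 and 51.6 with scrambled siRNA and 34.1, 33.8 and 35.8 with *DUSP6* siRNA (-0.71, adjusted p = 0.00217). Neither of these overlapped between the groups. *CENPM* (log2 fold change -0.69), *CENPO* (-0.63), *CENPI* (-0.58), *CENPP* (-0.44), *CENPQ* (-0.43) and *CENPA* itself (-0.36) were lower too. *CENPH*, *CENPL* and *CENPW* did not pass the test. *CENPH*, a partner of CENPI and CENPK in the same subcomplex, had values of 6.13, 9.27 and 11.2 with scrambled siRNA and 8.63, 7.11 and 8.81 with *DUSP6* siRNA and a log2 fold change of -0.07 (95% interval -0.50 to 0.36), with its lowest value in a scrambled siRNA library. *CENPL*, which pairs with CENPN, had values of 18.5, 14.1 and 19.3 with scrambled siRNA and 13.9, 14.9 and 13.1 with *DUSP6* siRNA, with some overlap (-0.28, interval -0.59 to 0.02). The histone-fold subunit *CENPW* had values of 19.4, 16.5 and 20.96 with scrambled siRNA and 15.8, 14.8 and 15.7 with *DUSP6* siRNA. These did not overlap, but its fold change of -0.27 had a limma adjusted p of 0.0776. The calls of *CENPA* and *CENPP* were each lost in 4 or more of the fits that left out 1 library (adjusted p up to 0.116 without *DUSP6* siRNA replicate 2 and 0.0994 without *DUSP6* siRNA replicate 3), and that of *CENPQ* without scrambled siRNA replicate 1 (0.0542), *DUSP6* siRNA replicate 1 (0.0778) or 2 (0.0723). *CENPL* and *CENPW* were called lower without scrambled siRNA replicate 2, at -0.42 and -0.37. Exons of *IPPK* cover 39.9% of those of *CENPP*, *ADCY3* covers 27.0% of *CENPO*, *PRIMPOL* 14.9% of *CENPU* and *SLC35F6* 7.08% of *CENPA*, so these values are uncertain.

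The outer kinetochore held both the largest fall and the 2 smallest changes of the 57 genes. Of its 13 genes, 9 were lower and the median log2 fold change was -0.686. *SKA3*, whose product couples the kinetochore to shrinking microtubule ends, fell most of all 57 genes. Its values (Entrez 221150, chr13:21153595-21176552) were 67.95, 49.7 and 43.4 with scrambled siRNA and 26.9, 22.5 and 24.04 with *DUSP6* siRNA, which left 45.5% of the scrambled mean and gave a log2 fold change of -1.08 (SE 0.16, limma adjusted p = 0.000776). The other SKA subunits were lower as well. *SKA2* had values of 93.4, 74.5 and 67.7 with scrambled siRNA and 44.1, 44.7 and 41.4 with *DUSP6* siRNA (-0.83, adjusted p = 0.000827), and *SKA1* had a log2 fold change of -0.78. For all 3 subunits the groups were apart.

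In the NDC80 complex, which binds the microtubule, the 4 subunits did not move by the same amount. *SPC24*, with the tightest scrambled group of the complex, had values of 20.8, 20.2 and 20.2 with scrambled siRNA and 11.2, 10.4 and 9.78 with *DUSP6* siRNA and a log2 fold change of -0.90 (SE 0.10, adjusted p = 0.000181). *SPC25* (-0.78) and *NUF2* (-0.45) were lower. *NDC80*, the subunit that names the complex, had values of 21.1, 20.7 and 16.5 with scrambled siRNA and 17.4, 16.8 and 15.7 with *DUSP6* siRNA and was not called (-0.21, 95% interval -0.48 to 0.07). Its lowest scrambled siRNA library fell among the *DUSP6* siRNA libraries, and without that library, scrambled siRNA replicate 3, it was called lower at -0.32. The call of *NUF2* was lost without *DUSP6* siRNA replicate 2 (adjusted p = 0.0573). In the MIS12 complex, the platform between inner and outer kinetochore, *DSN1* was called lower (-0.45, adjusted p = 0.00633) and the other 3 subunits were not called. *MIS12* had values of 18.7, 17.2 and 20.1 with scrambled siRNA and 18.2, 16.6 and 19.4 with *DUSP6* siRNA (-0.04, interval -0.29 to 0.20). *NSL1* had values of 72.2, 67.4 and 53.5 with scrambled siRNA and 59.6, 64.3 and 60.9 with *DUSP6* siRNA (-0.05, interval -0.32 to 0.22), and *PMF1* had 28.6, 30.4 and 28.9 with scrambled siRNA and 26.97, 29.01 and 24.9 with *DUSP6* siRNA (-0.12, interval -0.34 to 0.10). In all 3 the groups overlapped. Their intervals reached down to a log2 fold change of -0.34. Exons of *DERL2* cover 9.53% of those of *MIS12*, which is therefore uncertain. *KNL1*, the scaffold on which the checkpoint proteins assemble, had a log2 fold change of -0.69 and its partner *ZWINT* one of -0.72, both called.

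**Figure D3:**
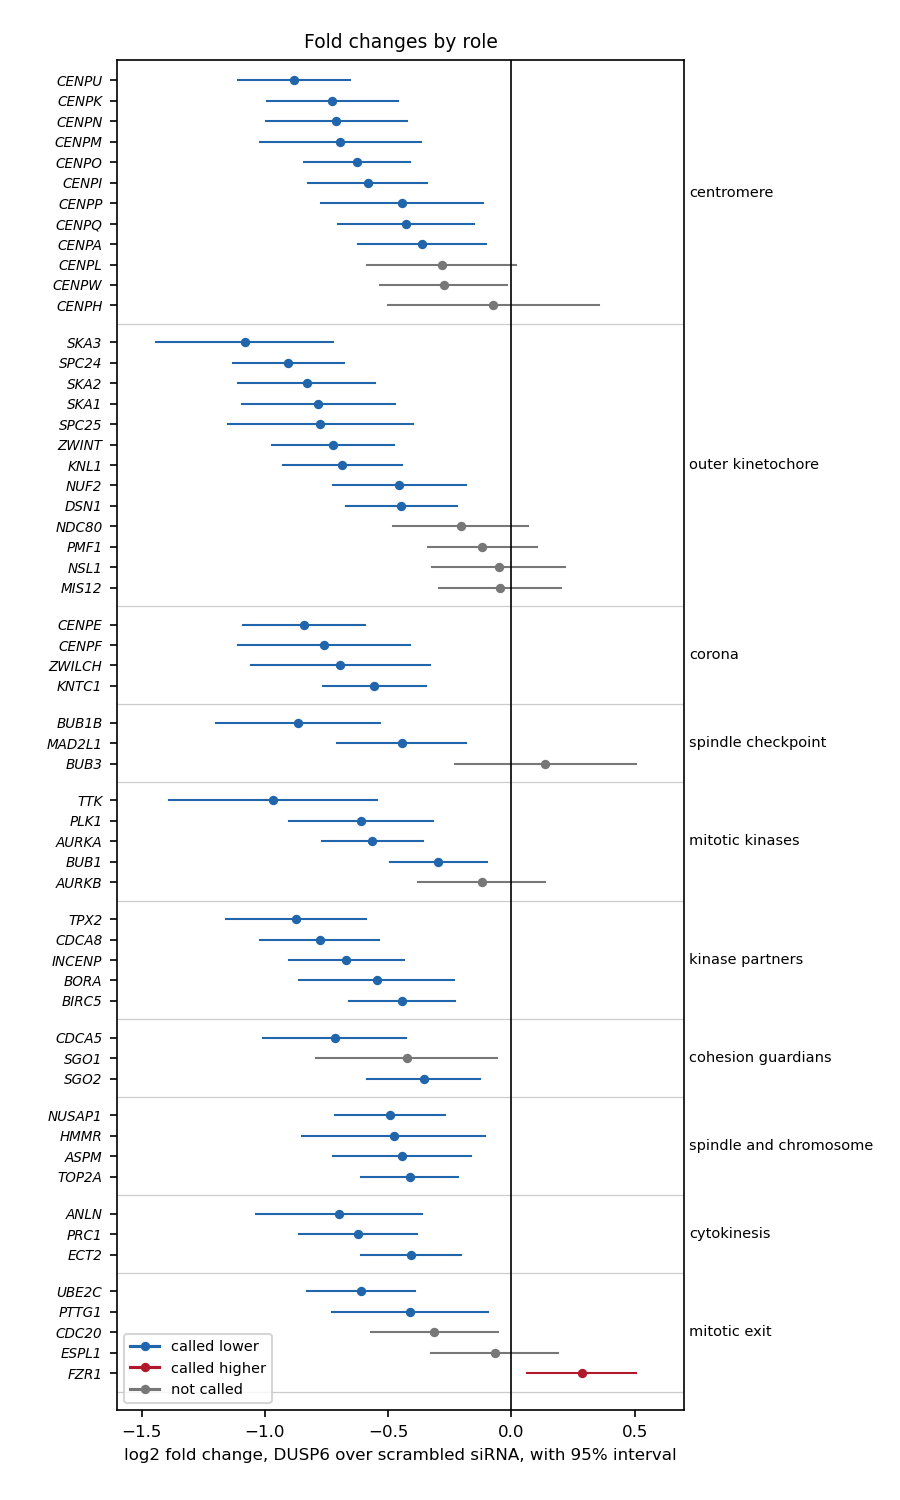
Log2 fold change of each of the 57 genes (horizontal axis, *DUSP6* over scrambled siRNA, 3 libraries each) with its 95% interval from limma, grouped by role (vertical axis). Blue marks genes called lower, red *FZR1*, called higher, and grey the 12 genes not called.

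The corona, the outermost layer of the kinetochore before microtubules attach, had all 4 of its genes lower, with a median of -0.727. *CENPE* codes for a kinesin that carries chromosomes towards the spindle equator. Its values were 142, 122 and 108 with scrambled siRNA and 70.8, 67.99 and 66.2 with *DUSP6* siRNA, with a log2 fold change of -0.84 (adjusted p = 0.000421). *CENPF* had values of 569, 492 and 362 with scrambled siRNA and 294, 257 and 274 with *DUSP6* siRNA (-0.76, adjusted p = 0.00423). *ZWILCH* and *KNTC1* code for subunits of the RZZ complex, which brings dynein and the MAD1-MAD2 complex to the kinetochore. *ZWILCH* had values of 70.7, 43.96 and 63.2 with scrambled siRNA and 37.2, 33.3 and 36.3 with *DUSP6* siRNA (-0.69), and *KNTC1*, the corona gene nearest to 0, had 129, 112 and 126 with scrambled siRNA and 86.6, 78.6 and 83.04 with *DUSP6* siRNA (-0.56). None of the 4 overlapped between the groups. Exons of *LCTL* cover 7.61% of those of *ZWILCH*, whose value is uncertain.

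Of the 3 checkpoint genes, 2 were called lower, with a median of -0.445 over the 3. *BUB1B*, which codes for BUBR1 of the mitotic checkpoint complex, had values of 214, 190.2 and 139 with scrambled siRNA and 103, 95.6 and 93.4 with *DUSP6* siRNA (-0.87, adjusted p = 0.00168). *MAD2L1*, the gene for MAD2, had values of 56.9, 52.3 and 68.2 with scrambled siRNA and 45.8, 40.1 and 43.03 with *DUSP6* siRNA (-0.45, adjusted p = 0.013). Both groups were apart for each gene, and the call of *MAD2L1* was lost without *DUSP6* siRNA replicate 2 (adjusted p = 0.0615). *BUB3*, which binds BUB1 and BUBR1 and also has roles outside mitosis, had values of 156, 229.8 and 248 with scrambled siRNA and 232, 212 and 240.4 with *DUSP6* siRNA, with the lowest of the 6 in scrambled siRNA replicate 1. Its log2 fold change was 0.14 (interval -0.23 to 0.50, not called) and -0.07 without that library. *BUB1B* shares 5.38% of its exon sequence with *PAK6*, so its value is uncertain.

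Of the 5 mitotic kinase genes, 4 were called lower, with a median of -0.564. *TTK*, the gene for MPS1, the kinase that starts the checkpoint, fell second most of all 57 genes. Its values (Entrez 7272, chr6:80004649-80042527) were 71.5, 39.05 and 54.2 with scrambled siRNA and 28.4, 26.5 and 25.6 with *DUSP6* siRNA, with a log2 fold change of -0.97 (SE 0.19, limma adjusted p = 0.00328), and its scrambled siRNA libraries were far apart. *PLK1*, which acts at centrosomes, kinetochores and the midbody, had values of 195, 154 and 139 with scrambled siRNA and 114, 104 and 98.6 with *DUSP6* siRNA (-0.61, adjusted p = 0.00516). *AURKA*, the kinase of the spindle poles, had 109.7, 94.7 and 97.4 with scrambled siRNA and 70.1, 65.9 and 66.8 with *DUSP6* siRNA (-0.56, adjusted p = 0.00127). *TTK*, *PLK1* and *AURKA* did not overlap between the groups. *BUB1* had a smaller change of -0.30 (adjusted p = 0.0218), and its call was lost without any 1 of the 3 *DUSP6* siRNA libraries (adjusted p of 0.0556, 0.0847 and 0.0883). *AURKB*, the kinase of the chromosomal passenger complex, had values of 21.4, 17.4 and 19.6 with scrambled siRNA and 19.2, 16.9 and 17.2 with *DUSP6* siRNA. The groups overlapped and it was not called (-0.12, interval -0.38 to 0.14).

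The partners of these kinases were all called lower, 5 of 5, with a median of -0.67. *TPX2*, which activates Aurora A on the spindle, had values of 270.2, 227 and 193 with scrambled siRNA and 133, 118 and 122 with *DUSP6* siRNA (-0.87, adjusted p = 0.000698). *CDCA8*, the gene for borealin, had 69.9, 60.4 and 55.1 with scrambled siRNA and 37.2, 34.4 and 34.8 with *DUSP6* siRNA (-0.78, adjusted p = 0.000571). *INCENP*, the scaffold of the passenger complex, had 80.9, 87.4 and 69.9 with scrambled siRNA and 51.8, 48.8 and 47.5 with *DUSP6* siRNA (-0.67, adjusted p = 0.00106). In each the lowest scrambled siRNA library was above the highest *DUSP6* siRNA library. *BIRC5*, the gene for survivin and the partner nearest to 0, had values of 74.7, 65.7 and 67.2 with scrambled siRNA and 54.5, 48.2 and 49.3 with *DUSP6* siRNA (-0.44). *BORA*, the Aurora A cofactor in the activation of PLK1, fell by 0.55 on the log2 scale, but exons of *DIS3* cover 37.0% of its own and its value is uncertain. The passenger complex thus held 3 subunits that were lower and a kinase, *AURKB*, that did not pass the test.

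Ratios of partner genes were also taken within each library, for 4 pairs picked after the values had been seen, in which one gene was called lower and the other was not called, or, for *CDC20* and *FZR1*, the fold changes had opposite signs. The log2 ratio of *SPC24* to *NDC80* was -0.02, -0.03 and 0.28 with scrambled siRNA and -0.59, -0.64 and -0.63 with *DUSP6* siRNA, a difference of -0.70. For *DSN1* to *MIS12* it was 1.34, 1.26 and 1.08 against 0.90, 0.85 and 0.73, a difference of -0.40. The passenger pair *CDCA8* to *AURKB* had 1.66, 1.74 and 1.45 against 0.92, 0.99 and 0.97, a difference of -0.66. The groups were apart in these 3 pairs. The coactivators *CDC20* to *FZR1* had 0.79, 0.37 and 0.81 against 0.12, -0.07 and 0.12, a difference of -0.60, also with no overlap. Since the pairs were picked for this separation, the ratios are a description and were not tested.

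**Figure D4:**
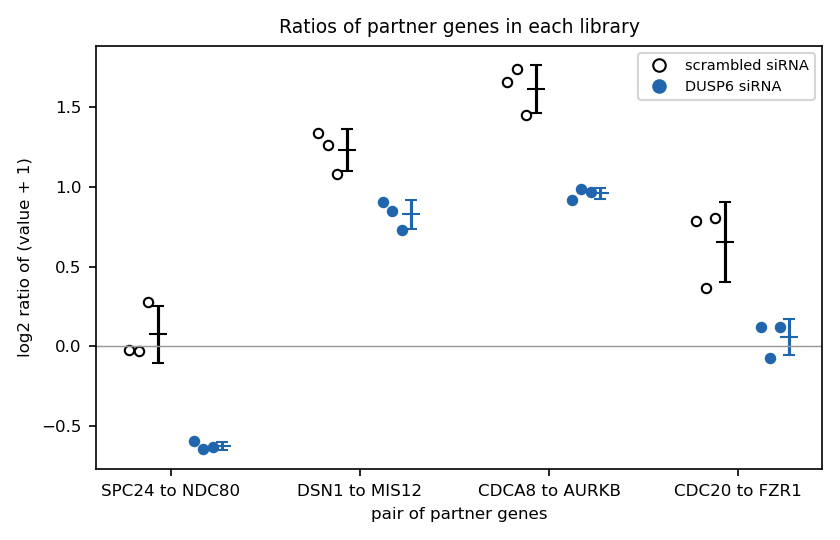
Log2 ratio of (value + 1) of 4 pairs of partner genes (vertical axis), one circle per library, open for scrambled and filled for *DUSP6* siRNA, with the mean and SD of 3 libraries beside them. In every pair the 3 *DUSP6* siRNA libraries lie below the 3 scrambled siRNA libraries.

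The cohesion guardians keep sister chromatids together until anaphase, and 2 of their 3 genes were called lower. *CDCA5*, the gene for sororin, which shields cohesin from WAPL, had values of 107, 76.6 and 103 with scrambled siRNA and 59.1, 56.9 and 55.1 with *DUSP6* siRNA (-0.72, adjusted p = 0.00217). The shugoshin genes protect cohesin at the centromere and had smaller fold changes. *SGO2* had values of 56.5, 49.7 and 45.97 with scrambled siRNA and 38.9, 40.8 and 38.1 with *DUSP6* siRNA (-0.36, adjusted p = 0.0196), a call lost without *DUSP6* siRNA replicate 1 (0.0718) or 3 (0.0865). *SGO1* had 23.1, 16.8 and 14.03 with scrambled siRNA and 12.9, 12.9 and 12.8 with *DUSP6* siRNA, with no overlap but a wide scrambled group, and was not called (-0.42, interval -0.79 to -0.06, adjusted p = 0.0601). It was called without scrambled siRNA replicate 3, at -0.58. Exons of the antisense gene *SGO1-AS1* cover 15.8% of those of *SGO1*, so its value is uncertain.

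The 4 genes of the spindle and the mitotic chromosome were all lower and close to each other, from -0.49 to -0.41 with a median of -0.46. *NUSAP1*, which bundles microtubules near chromosomes, had values of 232, 236 and 194 with scrambled siRNA and 162, 151 and 155 with *DUSP6* siRNA (-0.49, adjusted p = 0.00387). *HMMR*, a spindle pole protein, had 48.1, 37.7 and 28.8 with scrambled siRNA and 27.6, 26.4 and 25.8 with *DUSP6* siRNA (-0.48, adjusted p = 0.0405), and *ASPM*, also of the spindle poles, had 357, 370.3 and 269 with scrambled siRNA and 246, 243 and 236 with *DUSP6* siRNA (-0.44, adjusted p = 0.0181). *TOP2A*, the topoisomerase that untangles sister chromatids, had 172, 160.0 and 152 with scrambled siRNA and 126, 120.1 and 116 with *DUSP6* siRNA (-0.41, adjusted p = 0.00503). In all 4 the groups were apart, by little in *HMMR*. The calls of *HMMR* and *ASPM* were lost in all fits that left out 1 library other than scrambled siRNA replicate 3, with adjusted p up to 0.116 for *HMMR* and 0.0661 for *ASPM*, and under quantile normalization *ASPM* had a fold change of -0.21. Exons of *OIP5* cover 9.76% of those of *NUSAP1*, so its value is uncertain.

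All 3 cytokinesis genes were lower, with a median of -0.622. *ANLN*, the gene for anillin, a scaffold of the contractile ring, had values of 247, 200.3 and 157 with scrambled siRNA and 120.5, 128 and 116 with *DUSP6* siRNA (-0.70, adjusted p = 0.00534). *PRC1*, which crosslinks the antiparallel microtubules of the central spindle, had 136, 129 and 106 with scrambled siRNA and 80.2, 80.2 and 78.5 with *DUSP6* siRNA (-0.62, adjusted p = 0.00169). *ECT2*, the exchange factor that activates RhoA at the division plane, had 299, 257 and 280.4 with scrambled siRNA and 209, 216 and 204 with *DUSP6* siRNA (-0.41, adjusted p = 0.00597). The *DUSP6* siRNA libraries lay below all scrambled siRNA libraries for each gene. Under quantile normalization *ECT2* was not called (-0.20, adjusted p = 0.0605). Exons of *PRC1-AS1* on the other strand cover 34.3% of those of *PRC1*, so its value is uncertain.

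The exit genes went in both directions, with 2 of 5 called lower, 1 called higher and a median of -0.314. *UBE2C*, the ubiquitin-conjugating enzyme of the anaphase-promoting complex, had values of 82.8, 71.1 and 75.03 with scrambled siRNA and 53.3, 47.6 and 47.9 with *DUSP6* siRNA (-0.61, adjusted p = 0.00118). *PTTG1*, the gene for securin, had 65.5, 49.6 and 43.6 with scrambled siRNA and 39.5, 39.2 and 38.4 with *DUSP6* siRNA (-0.41, adjusted p = 0.0399), and its call was lost without any 1 of 5 libraries, scrambled siRNA replicate 3 being the exception. *CDC20*, the coactivator that the checkpoint holds back, had 86.5, 74.1 and 99.1 with scrambled siRNA and 72.4, 67.1 and 67.5 with *DUSP6* siRNA. Its groups did not overlap, yet its fold change of -0.31 (interval -0.57 to -0.06) had a limma adjusted p of 0.0501, just past the threshold, and it was called under median-of-ratios scaling (0.0433) and without scrambled siRNA replicate 2 (0.0111). *ESPL1*, the gene for separase, had 63.4, 62.1 and 80.5 with scrambled siRNA and 68.1, 64.1 and 62.9 with *DUSP6* siRNA and was not called (-0.07, interval -0.33 to 0.19). *FZR1* codes for CDH1, the coactivator that takes over from CDC20 late in mitosis and works through G1. Its values (Entrez 51343, chr19:3506311-3538334) were 49.6, 57.2 and 56.2 with scrambled siRNA and 66.4, 70.7 and 61.9 with *DUSP6* siRNA, every *DUSP6* siRNA library above every scrambled one, with a log2 fold change of 0.28 (SE 0.10, limma adjusted p = 0.0403). This call was lost without scrambled siRNA replicate 1 (0.096) and without *DUSP6* siRNA replicate 1 (0.118), 2 (0.145) or 3 (0.0713).

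**Figure D5:**
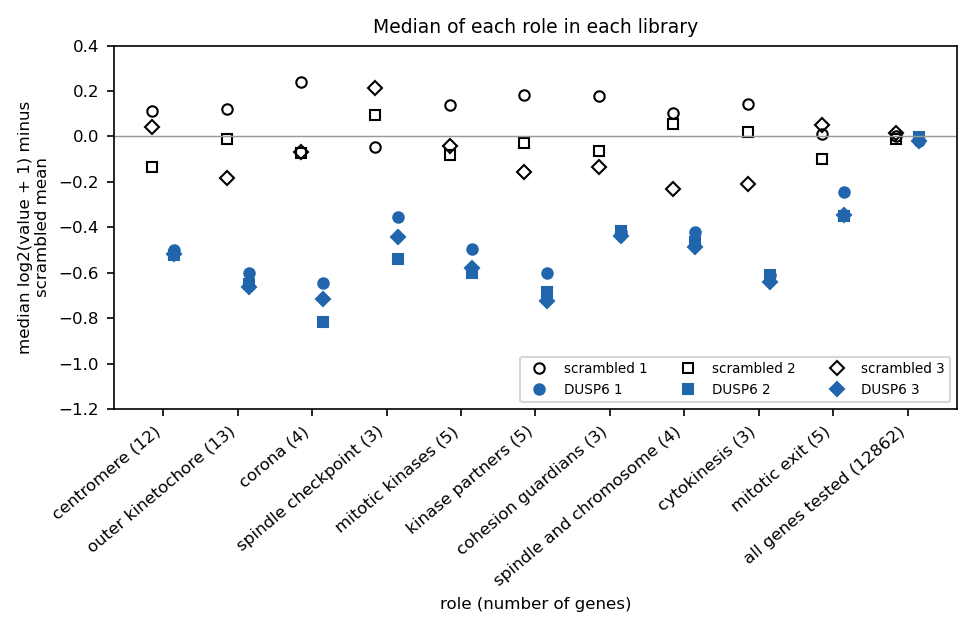
Median over the genes of each role (horizontal axis, number of genes in brackets) of log2(value + 1) minus the scrambled siRNA mean (vertical axis) in each library, open symbols for scrambled and filled for *DUSP6* siRNA replicates 1 to 3. The filled symbols lie below the open ones in every role, from -0.245 at the highest in mitotic exit to -0.816 at the lowest in the corona, while the medians of all genes tested lie near 0.

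The contrast between the constitutive centromere and outer kinetochore on one side and the kinases and exit genes on the other was modest. The 25 centromere and outer kinetochore genes had a median of -0.584 on the log2 fold change scale (range -1.08 to -0.04), with 18 called lower. The 10 kinases and exit genes had a median of -0.362 (range -0.97 to 0.28), with 6 called lower and 1 higher. The medians of the classes differed by 0.222, and no test was made, since genes of a class are not replicates of a condition. Within the second class the kinases had a median of -0.564, near that of the first class, and the exit genes one of -0.314. Within the first class the median was -0.514 for the centromere and -0.686 for the outer kinetochore. With the main scaling, the kinases alone were thus not above the centromere genes. Both orders reversed under quantile normalization, with medians of -0.459 for the kinases, -0.581 for the centromere and -0.554 for the outer kinetochore. The medians of the first class were -0.525, -0.54 and -0.564 in the *DUSP6* siRNA libraries, each below those of the second class, -0.319, -0.379 and -0.389. In the scrambled siRNA libraries the medians were 0.118, -0.076 and -0.017 for the first class and 0.123, -0.09 and -0.004 for the second. Both classes spanned large falls and genes that were not called. Leaving out scrambled siRNA replicate 2 or 3 reduced the difference to 0.144 or 0.139.

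Levels per kilobase of transcript differed widely between the genes. On the scale of values per kilobase of the MANE Select transcript, the highest mean levels with scrambled siRNA were those of *ZWINT* (118), *UBE2C* (98.2), *NUSAP1* (97.5), *PLK1* (75.3) and *PTTG1* (74). The lowest were *CENPP* (0.518), *CENPI* (3.08) and *BORA* (3.9). Partners in a complex were not at equal mRNA levels. In the NDC80 complex *NUF2* stood at 31.8 and *SPC25* at 18.9, while *NDC80* and *SPC24* stood at 9.14 and 8.91 per kilobase. In the MIS12 complex *PMF1* (27.4) and *DSN1* (20.7) were above *MIS12* (7.45) and *NSL1* (4.91). That order rests on the transcript lengths, 13115 bases for *NSL1* and 1068 for *PMF1*. Before division by length, *NSL1* had the highest mean scrambled value of the complex, 64.4. Which transcripts these cells used was not tested. Over the 57 genes, the log2 fold change and the log2 mean scrambled value had a Spearman rho of -0.261 and a Pearson r of -0.224, which describe genes that share the same 6 libraries and are not replicates.

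Other genes of the same processes moved in both directions. Of 68 listed genes outside the 57, 67 were tested, 29 were lower and 4 higher, with a median log2 fold change of -0.258, beside the 24.7% lower and 19.7% higher of all genes tested. Among 14 other centromere and kinetochore genes 6 were lower, led by *TRIP13* (-1.25), which remodels MAD2, with *OIP5* (-0.53) and *CENPX* (-0.52) next. Exons of *OIP5-AS1* cover 63.2% of those of *OIP5*, so that value is uncertain. Among 12 cohesin genes 3 were lower, *PDS5A* (-1.27), *ESCO2* (-0.55) and *SMC3* (-0.45), and the loader *MAU2* was higher (0.23), so the share that was lower was near that of all genes. Of 8 condensin genes 6 were lower, with *NCAPG2* (-0.80), *SMC4* (-0.69) and *NCAPH* (-0.62) first, and 19.0% of the exon sequence of *SMC4* shared with *TRIM59*. The 16 genes of the anaphase-promoting complex had a median of 0.123. Of these, *FBXO5* (-0.40, the gene for its inhibitor EMI1), *ANAPC1* (-0.31) and *ANAPC16* (-0.29) were lower, while *CDC27* (0.52), *CDC26* (0.46) and *CDC16* (0.31) were higher, and neither share exceeded that of all genes. Among 6 other mitotic kinase genes tested 5 were lower, with *PKMYT1* (-0.93), *HASPIN* (-0.78) and *NEK2* (-0.66) first. Exons shared with neighbors, 24.7% for *PKMYT1* and 15.3% for *HASPIN*, make both values uncertain. Among 11 other spindle and cytokinesis genes 6 were lower, with *CEP55* (-1.03), which recruits the abscission machinery to the midbody, *FAM83D* (-0.77) and *CKAP2L* (-0.71) first, the last sharing 8.69% of its exons with *NT5DC4*. For comparison, 26 of 27 DNA replication genes were lower, with a median of -0.694. The lists were not tested against each other.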

How the data were processed

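RNA from 6 libraries of MDA-MB-453 cells was sequenced by the authors with a stranded mRNA kit. With Rsubread 2.0.0 the authors mapped the reads to hg38 and counted them over RefSeq gene models with default settings. They deposited 1 table of normalized signal values on a linear scale. The sources used here do not name its normalization, and the submitters' processing notes name bcl2fastq and edgeR. Every value (100%, within 1e-06 reads) came out as whole reads once divided by the library's step, and the scaling differed by at most 3e-15 from edgeR's TMM factors. Default counting ignores strand, so exons shared with a gene on either strand make a value uncertain, and genes sharing over 5% are named as such.

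The values were taken as log2(value + 1), so fold changes at low values are understated. Of 22807 genes, the 12862 whose mean was 1 or more entered limma 3.58.1 (R 4.3.3, lmFit, eBayes with a trend, two-sided), with Benjamini-Hochberg adjustment over all of them. The quasi-likelihood test of edgeR 4.0.16, run on the reads so recovered, was an alternative. Both tools were tested on data simulated for this comparison with 12862 genes, of which 200 changed. Each recovered 100% of the 200, limma with 6 and edgeR with 8 unchanged genes called. How recovery depends on the size of a fall or on the spread between libraries was not tested. The 100% therefore does not carry over to the moderate falls or to the genes not called above.

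The 57 genes, their roles and the other lists were chosen with earlier results of these data known. Values in every library are given for up to 3 called genes per role with the largest absolute log2 fold change, for the gene of each role nearest to 0 and for genes not called lower. Of each other list, up to 3 called genes with the largest change and those called higher are named. Marker genes were listed as luminal and apocrine, of other cells (*CD3E* was not analysed here) and interferon-stimulated. One listed marker is not reported here. Gene positions and promoter sequences are those of RefSeq on GRCh38.p14, with the window nearest to the MANE Select start. Exon overlaps and transcript lengths are from GENCODE v44.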

Additional observations from a re-analysis of the deposited data

How the results depend on the processing

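The number of the 57 genes called lower, 44, was 39 with no filter on low values, 41 with a minimum mean of 10, 45 with median-of-ratios scaling, 41 with quantile normalization, 44 with a pseudocount of 0.1, without a trend or with edgeR, and 35 to 46 when 1 library was left out. The number over all genes tested, 3179 of 12862, moved as well. It was 3201 of 22807 with no filter and 2640 of 9562 with a minimum mean of 10. Of 12862 genes it was 3214 with median-of-ratios scaling, 2887 with quantile normalization, 2969 with edgeR, and 2306 to 3581 when 1 library was left out. All 57 genes had the same call in edgeR as in limma. Of the 44 calls, 34 held in all 6 fits that left out 1 library and 10 were lost in at least 1. With no filter *CENPA*, *CENPP*, *CENPQ*, *HMMR* and *PTTG1* were lost, and with quantile normalization *ASPM*, *BUB1*, *ECT2*, *HMMR* and *PTTG1*, while *CENPW* and *SGO1* were gained. The 1 gene called higher, *FZR1*, was lost without a trend, with the replicate block and in 4 of the fits that left out a library, a range of 0 to 1 called by limma. At an unadjusted p under 0.05 it was 1 in the fits without a trend and with the block, 0 without *DUSP6* siRNA replicate 1 or 2, and 1 with edgeR. The median log2 fold change of -0.547 became -0.465 with quantile normalization and lay between -0.583 and -0.468 when 1 library was left out. The difference of 0.222 between the role classes became 0.254 with a pseudocount of 0.1, 0.294 with a minimum mean of 10, 0.299 with quantile normalization and 0.247 with edgeR, and 0.139 to 0.277 when 1 library was left out. Reversed signs were found for 5 genes that were not called in the affected fits. With quantile normalization *NSL1* was at 0.037 and *ESPL1* at 0.027. When 1 library was left out, *NSL1* ranged from -0.178 to 0.035 (positive without scrambled siRNA replicate 1), *ESPL1* from -0.134 to 0.051 (positive without scrambled siRNA replicate 3), *BUB3* from -0.069 to 0.267 (negative without scrambled siRNA replicate 1), *CENPH* from -0.29 to 0.096 (positive without scrambled siRNA replicate 3, and 0.014 without *DUSP6* siRNA replicate 2) and *MIS12* from -0.10 to 0.013 (positive without *DUSP6* siRNA replicate 2, and 0.007 without scrambled siRNA replicate 3). The cause was not tested. In the lists outside the 57, the number of genes lower, 29, was 24 to 29 under the other settings. It was 21 to 35 when 1 library was left out. Of the 57 genes, 44 to 47 were without overlap under the other settings and 47 to 49 when 1 library was left out. Leaving out a library can only add to this count, and a minimum mean of 10 tests fewer of the 57. Shares over all genes under these settings are not given here, so these counts are only a description. No role median changed sign with median-of-ratios or quantile scaling. Under quantile normalization the order of the centromere, outer kinetochore and mitotic kinase medians changed.

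Over all 12862 genes tested, same-numbered libraries did not deviate together (r of 0.005, 0.087 and -0.076 for replicates 1 to 3). For the 57 genes, replicate 1 was the highest of its group for 41 genes with scrambled siRNA and 40 with *DUSP6* siRNA. Whether the numbers pair the libraries is therefore not settled by this check. With the replicate number as a block, 45 of the 57 genes were called lower, *SGO1* among them, and *FZR1* was not called. Over all 12862 genes tested, 3096 were called lower with the block. The spread between 3 libraries per group, more than the depth, limits these results, except at low values, where counting error adds to it.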
